A study of Sus scrofa with 5 samples.

Results

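The genes described here are 9 of the 30029 genes listed for porcine blastoid cells, and they encode the classical route of antigen presentation by MHC class I. They were taken by name: the heavy chains SLA-1, SLA-2 and SLA-3, the light chain B2M, the peptide transporter subunits TAP1 and TAP2, the loading factor TAPBP, and the regulators NLRC5 and CIITA. All 9 had enough counts to be tested in every comparison below at the main settings. Blastoids, embryo-like structures with a cavity, had been grown from porcine embryonic stem cells (pESCs) and collected on day 6 in iBlastoid medium. Those with an inner compartment, an outer layer and a cavity were picked by hand for 2 droplet single-cell RNA-seq libraries. The study describes its pESCs as derived from parthenogenetic blastocysts. Its improved protocol keeps the cells in 4FXY medium first, but its single-cell methods do not name the protocol used. The iBlastoid medium contains TSA and DZNep. The 3 other samples are bulk RNA-seq libraries of pESC cultures, for which the study's methods describe derivation from parthenogenetic blastocysts and culture in 4FIXY medium on mouse embryonic fibroblast feeder cells. The labels give no treatment contrast and do not say whether the blastoid libraries are separate cultures, so each p-value below measures only the spread between these libraries, which may be technical.

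An MHC class I molecule is a heavy chain paired with β2-microglobulin, the product of B2M. The proteasome cuts cytosolic proteins into peptides, the TAP1-TAP2 transporter moves these into the endoplasmic reticulum, and tapasin (TAPBP) holds the empty class I molecule at the transporter until a peptide is bound. NLRC5 is the transactivator of class I promoters and CIITA that of class II promoters, and interferons raise many genes of the route through factors that bind the interferon-stimulated response element (ISRE). Early embryos and pluripotent cells are known for low class I levels, and in the placenta the outer embryonic layer carries few classical class I molecules. ISG15, a ubiquitin-like protein, is a widely used marker of cells that have answered interferon. The classical pig genes are SLA-1, SLA-2 and SLA-3, and SLA-6, SLA-7 and SLA-8 are nonclassical ones.

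In the pig assembly Sscrofa11.1, SLA-1 (chr7:22824137-22920154), SLA-2 (chr7:22916747-22959405) and SLA-3 (chr7:22938211-22942735) lie on the plus strand, and SLA-2 overlaps both of the others. The gene model LOC100513601 also overlaps SLA-1 and SLA-2 on the same strand. Reads where gene models overlap or transcripts share sequence can be split or lost, so values of single heavy chain genes are uncertain. Windows of 90 bases in the last 500 bases of each transcript were searched in the other class I loci examined. The share found there was 0% in every SLA-3 transcript, and at most 39.9% in SLA-1 and 24.1% in SLA-2 transcripts. TAP2 (chr7:25045085-25056915), PSMB8, TAP1 (chr7:25062772-25071989) and PSMB9 lie next to each other, and 143 bases separate the starts of TAP1 and PSMB9, which point away from each other. TAPBP (chr7:29663491-29673453) is on the same chromosome, NLRC5 lies at chr6:18933179-19036288 and CIITA at chr3:32171706-32230775. B2M is annotated on chromosome 1 at 126837721 to 126844043 and again as a partial copy at 126865767 to 126878501, and every window of 90 bases in the last 500 bases of the copy's transcript is also in the first gene's transcripts. Reads of that stretch can be split or lost too, so B2M values share this uncertainty. TAPBP overlaps ZBTB22 on the same strand, so TAPBP values may share it as well.

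The start regions of 3 of these genes hold the core of an ISRE, searched as GAAANNGAAA on both strands from 250 bases before to 50 bases into each gene; of 19556 promoters of this length, 3.57% hold a match. The sequences below, from that assembly and read along each gene, are shown because these genes were all higher in ISG15-high cells. SLA-3 is shown as a heavy chain gene without a match to these exact letters. It was higher in ISG15-high cells too, as were SLA-1, SLA-2, TAPBP and NLRC5, which also lack a match. Capitals mark the ISRE core, which is 2 overlapping matches in B2M and, on the opposite strand, in TAP1, and 1 match in TAP2; in SLA-3 they mark a cyclic AMP response element half-site, TGACG, which 24.3% of promoters hold.
B2M, 120 bases upstream of the first gene's start (chr1:126844044-126844163, minus strand): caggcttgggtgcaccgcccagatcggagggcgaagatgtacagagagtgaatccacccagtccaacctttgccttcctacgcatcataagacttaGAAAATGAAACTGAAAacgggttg
TAP1, the first 30 bases (chr7:25071960-25071989, minus strand): ccgcTTTCGTTTTCCCTTTCccataaaccg
TAP2, bases 18 to 47 counted from its start (chr7:25056869-25056898, minus strand): ctggggaagcGAAAGCGAAAggcgcgggga
SLA-3, 120 bases upstream of its start (chr7:22938091-22938210, plus strand): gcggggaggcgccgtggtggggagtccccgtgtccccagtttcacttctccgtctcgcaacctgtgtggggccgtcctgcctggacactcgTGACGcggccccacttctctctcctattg
The same window of SLA-1, SLA-2, SLA-3, TAPBP, NLRC5, CIITA and the partial B2M copy held no GAAANNGAAA. This says only that these letters are not there. The windows follow the annotated starts, and for these genes sequence outside them was not searched. Other forms of the element were not searched either.

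Cells were barcodes with at least 11223 unique molecular identifiers (UMIs, counts of distinct captured RNA molecules) in library 1, which gave 7369 cells, and at least 9805 in library 2, which gave 8175 cells, with medians of 29728 and 27588 UMIs per cell. The libraries share 9 cell barcodes. ISG15-high cells, with at least 10 ISG15 UMIs, numbered 578 and 585. The other cells were grouped by at least 5 UMIs of a marker gene. GABRP, a receptor subunit of epithelial cells, gave 1860 and 1836 cells, and POU5F1, a pluripotency factor, 706 and 1144. COL3A1, a fibrillar collagen, gave 556 and 430. The remaining 3400 and 3890 cells had fewer than 5 UMIs of each marker, and 269 and 290 with at least 5 of more than 1 marker were set aside. The fixed UMI minimum favours deeper cells, and ISG15-high cells had medians of 33790 and 29972 UMIs against 28012 and 25433 in the remaining cells. The groups were checked against marker lists: 15 of 16 tested interferon-stimulated genes were higher in ISG15-high cells (13.2% of all genes), 8 of 8 pluripotency genes were lower in GABRP-high than POU5F1-high cells (26.3%), and 7 of 8 mesenchymal genes were higher in COL3A1-high than POU5F1-high cells (28.7%). Levels are given as UMIs per 1000000 UMIs of the group (CPM), library 1 before library 2, and are compared only within a gene.

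The light chain gene B2M had the most UMIs of the 9 genes and the lowest p-value in ISG15-high cells. Its level was 161 and 165 CPM in ISG15-high cells, 94.8 and 106 CPM in COL3A1-high cells, 29.1 and 22.5 CPM in GABRP-high cells, 12.2 and 12.8 CPM in POU5F1-high cells, and 11.0 and 8.58 CPM in the remaining cells. No 2 groups overlapped between libraries in this order, although the POU5F1-high and remaining cells lay close and that pair was not tested. B2M was 7.13-fold higher in ISG15-high cells than the geometric mean of the other 4 groups, the mean of their log levels, which is the reference in all folds of ISG15-high cells below (log2 2.83 ± 0.08 SE, 2 libraries; edgeR quasi-likelihood test, Benjamini-Hochberg adjusted p = 1.2e-09). ISG15-high cells held 43.0% and 45.4% of all B2M UMIs but 9.90% and 8.45% of all UMIs.

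The share of cells with a B2M UMI was also highest in ISG15-high and COL3A1-high cells. A B2M UMI was present in 75.4% and 72.0% of ISG15-high cells, 68.3% and 63.5% of COL3A1-high cells, 32.6% and 28.9% of GABRP-high cells, 37.0% and 34.1% of POU5F1-high cells, and 19.2% and 15.4% of the remaining cells. After each cell was thinned to 9805 UMIs these shares were 53.9% and 51.8% in ISG15-high, 47.2% and 46.4% in COL3A1-high, 16.7% and 14.7% in GABRP-high, 11.1% and 11.5% in POU5F1-high, and 8.17% and 7.0% in the remaining cells. The POU5F1-high share, higher than the GABRP-high share before thinning, was lower after it. Barcodes with 10 to 100 UMIs, taken as empty droplets, carried B2M at 50.6 and 38.4 CPM, above the POU5F1-high, GABRP-high and remaining cells. In these droplets TAP1 was at 10.4 and 8.96 CPM (17 and 21 UMIs), above all 4 groups other than ISG15-high cells. TAP2 was at 12.2 and 15.8 CPM (20 and 37 UMIs), above GABRP-high and COL3A1-high and below POU5F1-high and remaining cells. NLRC5 was at 1.22 and 1.28 CPM on only 2 and 3 UMIs, and TAPBP at 1.22 and 5.12 CPM on 2 and 12 UMIs, the latter above every cell group of library 2. The part of such free RNA in the low levels was not tested, and the low shares are not read as expression.

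**Figure D1:**
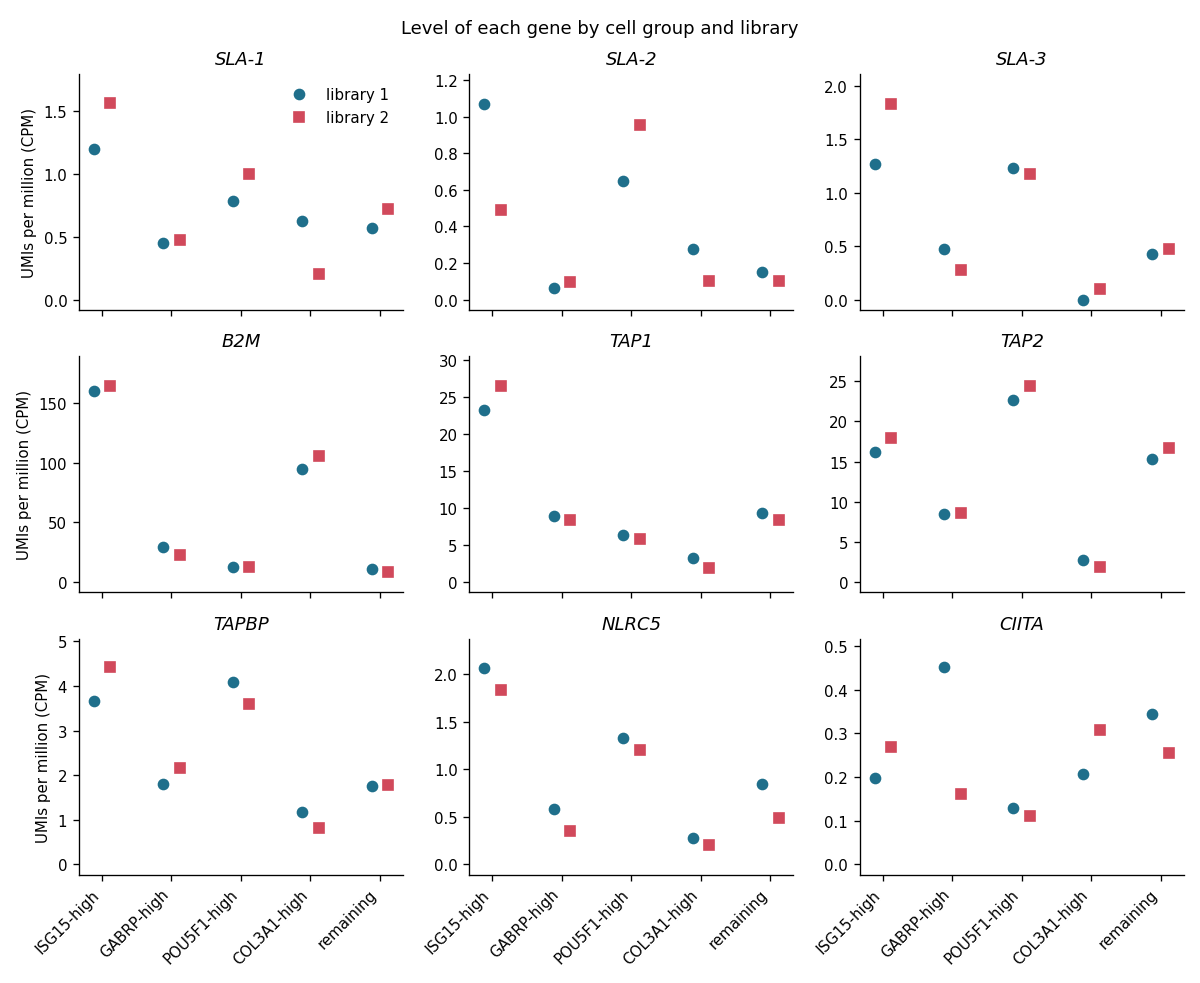
Level of each of the 9 genes (CPM, linear axis with its own scale for each gene) in 5 groups of blastoid cells, 1 point per library. B2M is highest in ISG15-high cells, at 161 and 165 CPM, and next highest in COL3A1-high cells, at 94.8 and 106 CPM, whereas TAP1 and TAP2 are lowest in COL3A1-high cells.

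The transporter subunits differed in how they followed ISG15. TAP1 stood at 23.3 and 26.6 CPM in ISG15-high cells, 8.97 and 8.42 CPM in GABRP-high cells, 6.30 and 5.88 CPM in POU5F1-high cells, 3.24 and 1.95 CPM in COL3A1-high cells, and 9.40 and 8.35 CPM in the remaining cells. Its ISG15-high values were above every other group, 4.34-fold over their geometric mean (log2 2.12 ± 0.09 SE, adjusted p = 4.6e-08). TAP2, its partner, was at 16.2 and 17.9 CPM in ISG15-high cells, but at 22.7 and 24.4 CPM in POU5F1-high cells and 15.3 and 16.7 CPM in the remaining cells. ISG15-high cells were therefore not the highest group for TAP2. GABRP-high cells had 8.40 and 8.57 CPM of TAP2 and COL3A1-high cells 2.76 and 1.85 CPM, and the fold over the geometric mean of the 4 groups was 1.90 (log2 0.92 ± 0.09 SE, adjusted p = 2.3e-05). A mean of logs gives weight to the low COL3A1-high cells: set against all cells with fewer than 10 ISG15 UMIs as a single group, TAP2 was only 0.32 higher on the log2 scale (adjusted p = 0.19). TAPBP had 3.66 and 4.42 CPM in ISG15-high cells, close to 4.09 and 3.60 CPM in POU5F1-high cells, and between 0.82 and 2.15 CPM in the other groups (log2 1.12 ± 0.14 SE, adjusted p = 0.00024).

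The heavy chain genes had few counted UMIs in every group. Loss of UMIs where their gene models overlap was not tested. SLA-1 had 30 and 35 UMIs in all ISG15-high cells (1.19 and 1.56 CPM), against 0.453 and 0.470 CPM in GABRP-high, 0.780 and 0.999 CPM in POU5F1-high, 0.621 and 0.206 CPM in COL3A1-high, and 0.566 and 0.721 CPM in the remaining cells. SLA-3 had 32 and 41 UMIs in ISG15-high cells (1.27 and 1.83 CPM), with 1.23 and 1.18 CPM in POU5F1-high cells, 0.469 and 0.275 CPM in GABRP-high cells, and 0.422 and 0.474 CPM in the remaining cells. COL3A1-high cells had 0 SLA-3 UMIs in library 1, which allows up to 0.207 CPM (3 counts; counting error only), and 1 in library 2. ISG15-high cells were higher than the geometric mean of the other groups for SLA-1 (log2 1.27 ± 0.27 SE, adjusted p = 0.0055) and SLA-3 (log2 2.39 ± 0.33 SE, adjusted p = 0.00042). Against all ISG15-low cells as a single group the SLA-3 difference was 1.53 (adjusted p = 0.034) and the SLA-1 difference 1.15 (adjusted p = 0.082).

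SLA-2 rested on 1 cell. ISG15-high cells held 27 and 11 SLA-2 UMIs, but 22 of the 27 in library 1 came from a single cell with 19975 UMIs. Its level was 1.07 and 0.491 CPM there, 0.650 and 0.954 CPM in POU5F1-high cells, and 0.062 to 0.276 CPM in the other groups, so that in library 2 the POU5F1-high cells were higher. SLA-2 was 2.01 ± 0.40 SE higher on the log2 scale (adjusted p = 0.0042), and without that cell and a second one with many NLRC5 UMIs the difference was 0.79 (adjusted p = 0.3). Library 2 alone gave 1.24. The second cell, with 40724 UMIs, held 17 of the 52 NLRC5 UMIs of ISG15-high cells in library 1. NLRC5 was at 2.07 and 1.83 CPM in ISG15-high cells against 1.33 and 1.20 CPM in POU5F1-high cells and 0.21 to 0.84 CPM elsewhere (log2 1.86 ± 0.27 SE, adjusted p = 0.00056), and without both cells the difference was 1.54 (adjusted p = 0.0034). CIITA had 5 and 6 UMIs in ISG15-high cells, and its difference of 0.07 ± 0.54 SE did not pass (adjusted p = 0.95).

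Counted together, 8 of the 9 genes were higher in ISG15-high cells and none was lower, where 13.2% of the 18571 genes tested were called higher and 7.67% lower. The median log2 difference of the 9 was 1.86, against 0.000716 over all genes. The count was 7 without the 2 cells just named and 5 when all ISG15-low cells formed a single group, in which SLA-1, SLA-2 and TAP2 did not pass and 0.966% of 20093 genes were higher. With ISG15-high cells set by at least 3 ISG15 UMIs per 10000 UMIs, a rule that does not favour deep cells, it was 8. Markers of another group moved along against this reference: 8 of 8 genes that accompany GABRP were higher in ISG15-high cells too (median log2 1.16). Their summed level was 1955 and 2088 CPM in ISG15-high cells and 2101 and 1871 CPM in all ISG15-low cells together. Inside marker groups, described below, edgeR called 0 of 8 (median log2 0.04; 4 at an unadjusted p under 0.05), where 1.23% of all genes were higher and 0.481% lower. Their part in the members' differences was not tested.

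B2M also rose over classes of ISG15 UMIs within each library, which is a description of the same cells. From 0 ISG15 UMIs through 1, 2 to 4, 5 to 9, 10 to 19 and 20 to 49 to 50 and over, library 1 had B2M at 25.2, 17.3, 20.9, 34.1, 53.0, 124 and 287 CPM. Library 2 had 18.6, 15.4, 17.9, 35.4, 56.5, 101 and 291 CPM. In both libraries B2M was lowest at 1 ISG15 UMI and rose from 2 to 4 onward. TAP1 lay at 8.19 to 8.67 CPM in library 1 and 7.20 to 9.90 CPM in library 2 up to 5 to 9 ISG15 UMIs, and reached 39.4 and 40.5 CPM in the top class. TAP2 did not rise steadily: it was at 12.9 and 14.8 CPM at 0, 15.3 and 19.6 CPM at 2 to 4, 13.3 CPM in both libraries at 5 to 9, and 19.5 and 20.2 CPM in the top class. The nonclassical SLA-6 stayed between 32.1 and 40.9 CPM over all classes of both libraries, and SLA-8 was at 38.8 and 43.5 CPM at 0 and at 37.3 and 42.4 CPM in the top class. In the top class 92.2% and 92.1% of cells had a B2M UMI and 68.1% and 67.0% had a TAP1 UMI.

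**Figure D2:**
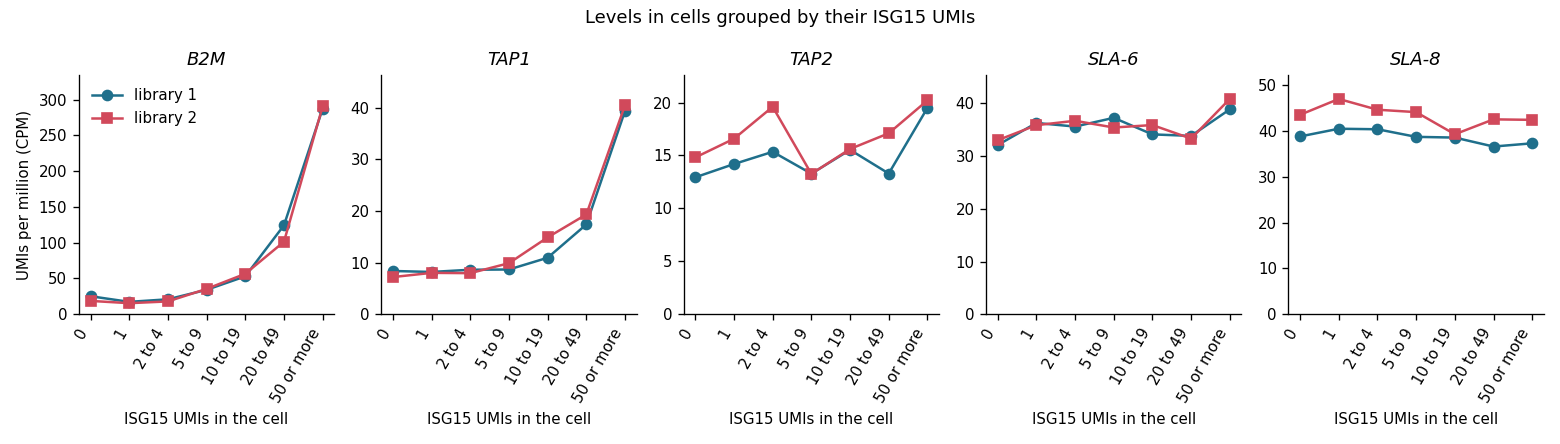
Level (CPM, linear axes) of B2M, TAP1 and TAP2 and of the nonclassical SLA-6 and SLA-8 against classes of ISG15 UMIs per cell, 1 line per library. B2M and TAP1 climb in the classes from 10 ISG15 UMIs up, to 287 and 291 CPM and to 39.4 and 40.5 CPM in the top class.

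ISG15-high cells were not spread evenly, so the comparison was repeated inside marker groups. Of all cells that passed only the GABRP minimum they made up 9.75% and 11.1%, against 7.58% and 6.67% of cells that passed none of the marker minimums, 4.14% and 3.80% of those that passed only that of COL3A1 and 1.67% and 3.21% for POU5F1. Of cells that passed more than 1 marker minimum they made up 18.7% and 7.05%; these cells are 10.7% and 3.76% of the ISG15-high cells above and are left out inside groups. COL3A1-high and POU5F1-high cells had fewer than 20 ISG15-high cells in a library and could not enter the fit. Among cells of the GABRP-high group, B2M was at 29.1 and 22.5 CPM in ISG15-low and 237 and 197 CPM in ISG15-high cells. In the remaining cells it was at 11.0 and 8.58 CPM against 159 and 158 CPM. The ISG15-high values were several times the ISG15-low ones in both libraries and both groups, 12-fold on average (log2 3.58 ± 0.10 SE, adjusted p = 4.6e-09). The few ISG15-high cells of the other groups, 12 and 38 POU5F1-high cells and 24 and 17 COL3A1-high cells, had B2M at 35.1 and 75.5 CPM and at 154 and 140 CPM.

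Inside these groups TAP1 and TAP2 again moved unequally. TAP1 went from 8.97 and 8.42 CPM to 30.9 and 30.0 CPM in GABRP-high cells and from 9.40 and 8.35 CPM to 24.6 and 25.3 CPM in the remaining cells (3.22-fold, log2 1.69 ± 0.07 SE, adjusted p = 8.3e-08). TAP2 went from 8.40 and 8.57 CPM to 16.1 and 15.4 CPM in GABRP-high cells, but from 15.3 and 16.7 CPM to 17.2 and 20.2 CPM in the remaining cells (1.51-fold over both, log2 0.59 ± 0.08 SE, adjusted p = 0.0034). SLA-1 (log2 1.41 ± 0.26 SE, adjusted p = 0.025), SLA-3 (log2 1.97 ± 0.28 SE, adjusted p = 0.0049), TAPBP (log2 1.23 ± 0.14 SE, adjusted p = 0.0012) and NLRC5 (log2 1.86 ± 0.32 SE, adjusted p = 0.015) were higher as well. SLA-2 (log2 2.75 ± 0.78 SE, adjusted p = 0.13) and CIITA (log2 -0.60, adjusted p = 0.75) did not pass. This made 7 of 9 higher, and none lower, where 1.23% of 17896 genes were higher and 0.481% lower, with a median log2 difference of 1.69 against -0.00797 over all genes. These are averages over both groups. Taken singly, 4 of 9 were higher in GABRP-high cells (B2M, TAP1, TAP2 and TAPBP; 0.587% of all genes) and 5 of 9 in the remaining cells (B2M, TAP1, TAPBP, SLA-2 and SLA-3; 1.15%), and none was lower in either. These are edgeR counts, and DESeq2 called 7 of 9 and 6 of 9. The SLA-2 call in the remaining cells holds the cell named above, which gave 22 of their 23 SLA-2 UMIs in ISG15-high cells of library 1. The marker lists were not alike in the 2 groups. Of the 8 genes that accompany GABRP, 2 were lower in ISG15-high cells of the GABRP-high group (median log2 -0.29; 0.358% of all genes were lower) and 1 was higher in the remaining cells (median log2 0.35; DESeq2 called 4), and the difference between the groups passed for TIMP1 alone, with 7 at an unadjusted p under 0.05. Of 8 mesenchymal genes 1 was lower in the GABRP-high group (median log2 -0.21) and 4 in the remaining cells (median log2 -1.42; 0.743% of all genes were lower), and the difference passed for MYL7. Their part in the members' differences was not tested. SLA-2 also passed with library as a block (adjusted p = 0.049) and with DESeq2 (adjusted p = 0.0019), but the cell with 22 SLA-2 UMIs is in both fits, and without it and the NLRC5-rich cell SLA-2 was at log2 1.74 (adjusted p = 0.35). NLRC5 lost its call without the 2 cells named above (log2 1.36, adjusted p = 0.13) and with a marker minimum of 2 UMIs per 10000 (log2 1.58, adjusted p = 0.057), and with a marker minimum of 3 UMIs both NLRC5 (adjusted p = 0.24) and TAP2 (adjusted p = 0.083) did.

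Whether the ISG15 difference itself depended on the group was tested directly. No member passed the test of a difference between GABRP-high and the remaining cells (edgeR, 0 of 9; 2 of 9 at an unadjusted p under 0.05; DESeq2 called 1), where 0.134% of all genes did. The B2M difference was 1.01 smaller on the log2 scale in GABRP-high cells (-1.01, adjusted p = 0.098), and this passed with library as a block (-1.01, adjusted p = 0.00027), with DESeq2 (adjusted p = 0.00044), with marker minimums of 10 UMIs (-1.39, adjusted p = 0.0085) and of 2 per 10000 (-0.97, adjusted p = 0.038), and without the deepest 5% of cells (-0.95, adjusted p = 0.036). For TAP2 it was 0.61 larger there (adjusted p = 0.23), or 0.60 with the block (adjusted p = 0.038).

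**Figure D3:**
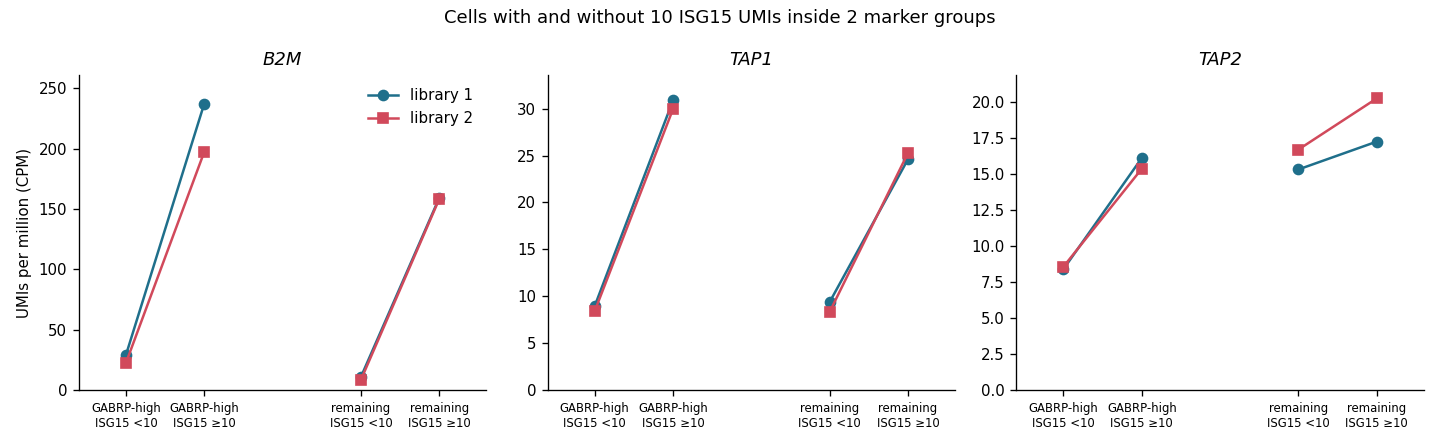
Level (CPM, linear axes) of B2M, TAP1 and TAP2 in ISG15-low and ISG15-high cells inside the GABRP-high and the remaining cells, 1 line per library. B2M and TAP1 are higher with ISG15 in each of the 4 pairs. TAP2 goes from 8.40 and 8.57 to 16.1 and 15.4 CPM in GABRP-high cells and from 15.3 and 16.7 to 17.2 and 20.2 CPM in the remaining cells. In edgeR the TAP2 difference between groups did not pass in the main fit (adjusted p = 0.23) and passed with library as a block (adjusted p = 0.038).

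Among ISG15-low cells, the members did not share a direction between GABRP-high and POU5F1-high cells. B2M was 2.33-fold higher in GABRP-high cells (29.1 and 22.5 against 12.2 and 12.8 CPM; log2 1.22 ± 0.13 SE, adjusted p = 1.1e-05) and TAP1 1.62-fold higher (log2 0.70 ± 0.12 SE, adjusted p = 0.00047). TAP2 was lower (8.40 and 8.57 against 22.7 and 24.4 CPM; log2 -1.30 ± 0.10 SE, adjusted p = 6.2e-07), so the subunits of the transporter were opposite in sign. SLA-2, with 4 and 6 UMIs in GABRP-high cells against 20 and 43, was lower by the widest margin (log2 -3.14 ± 0.52 SE, adjusted p = 0.00031), and SLA-3 (log2 -1.50, adjusted p = 0.0027), TAPBP (log2 -0.77, adjusted p = 0.0019) and NLRC5 (log2 -1.24, adjusted p = 0.0067) were lower too. SLA-1 just missed (log2 -0.78, adjusted p = 0.057) and passed with library as a block (log2 -0.77, adjusted p = 0.038) and in 5 other settings, RLE scaling, marker minimums of 10 UMIs and of 2 per 10000, the mitochondrial filter and removal of the deepest cells (log2 -0.82 to -1.01). CIITA was called higher on 29 and 10 against 4 and 5 UMIs (log2 1.53, adjusted p = 0.043), a call lost with DESeq2 (adjusted p = 0.13) and without the deepest 5% of cells (adjusted p = 0.075), and the difference was 0.55 in library 2 alone. With marker minimums of 10 UMIs and of 2 per 10000 CIITA had too few UMIs to be tested. Thus 3 of 9 were higher, where 30.8% of all genes were, and 5 of 9 lower, where 26.3% were.

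COL3A1-high cells combined high B2M with the lowest TAP1, TAP2, TAPBP, NLRC5 and SLA-3 levels of the 5 groups. Against POU5F1-high cells B2M was 8.66-fold higher (94.8 and 106 against 12.2 and 12.8 CPM; log2 3.12 ± 0.14 SE, adjusted p = 6.2e-09). TAP2 was lower (2.76 and 1.85 against 22.7 and 24.4 CPM; log2 -3.19 ± 0.16 SE, adjusted p = 1.5e-08), as were TAP1 (log2 -1.05, adjusted p = 0.00061), TAPBP (log2 -1.78, adjusted p = 8.1e-05), NLRC5 (log2 -2.22, adjusted p = 0.0046) and SLA-2 (log2 -1.86, adjusted p = 0.033). The SLA-2 call was lost with DESeq2 (adjusted p = 0.06), and its difference was -1.01 in library 1 alone and -2.73 in library 2 alone. SLA-3 had 1 UMI in COL3A1-high cells against 91 in POU5F1-high cells, a ratio of levels of 0.0344 with an exact 95% counting interval of 0.000862 to 0.197, and the fitted difference of -4.66 was -3.02 in library 2 alone. In all, 1 of 9 was higher (28.7% of all genes) and 6 of 9 lower (28.0%), and SLA-1 (log2 -0.88, adjusted p = 0.13) and CIITA (log2 1.16, adjusted p = 0.27) did not pass. SLA-1 passed with marker minimums of 10 UMIs (log2 -1.12, adjusted p = 0.028) and of 2 per 10000 (adjusted p = 0.03), and its difference was -0.19 in library 1 alone and -2.02 in library 2 alone. The POU5F1-high cells are shared by this comparison and the one before it.

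Against GABRP-high cells, B2M was 3.71-fold higher in COL3A1-high cells (log2 1.89), TAP1 was lower (log2 -1.74), as were TAP2 (log2 -1.89) and TAPBP (adjusted p = 0.0061). SLA-3, with 1 against 47 UMIs, had a ratio of 0.111 (exact 95% counting interval 0.00274 to 0.646); its call (log2 -3.16, adjusted p = 0.016) was lost with DESeq2 (adjusted p = 0.053) and with a marker minimum of 10 UMIs (adjusted p = 0.06), and library 2 alone gave -1.23. This was 1 of 9 higher, where 26.6% of genes were, and 4 of 9 lower, where 28.0% were. COL3A1-high cells had the lowest depth, with medians of 22504 and 19998.5 UMIs per cell.

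**Figure D4:**
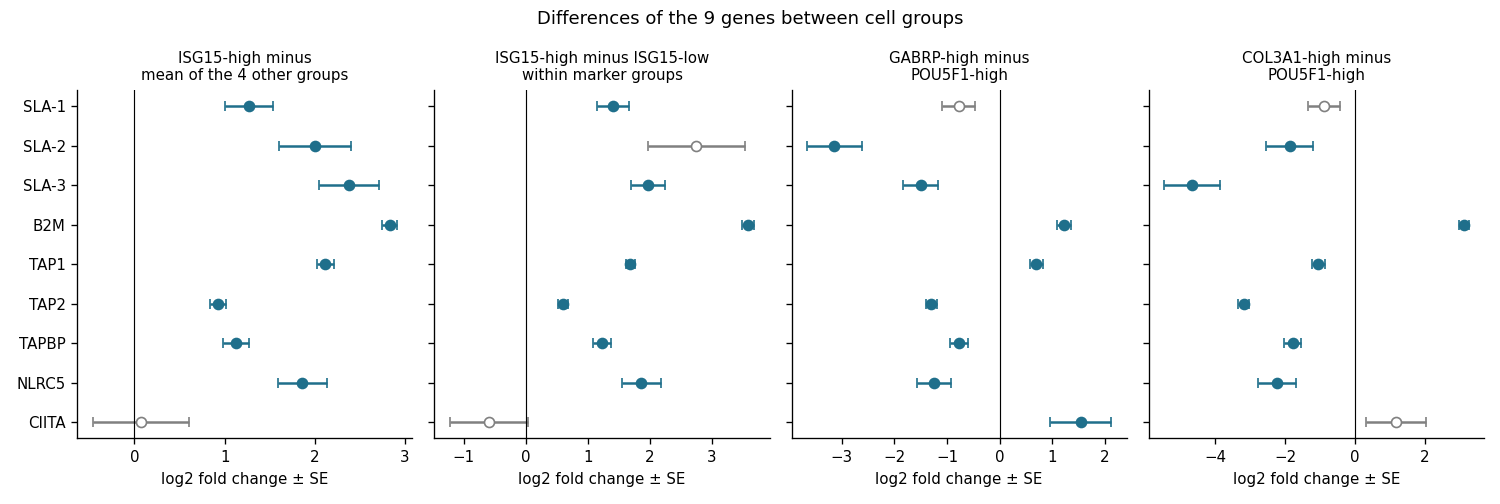
Log2 difference of each member with its standard error in 4 comparisons of cell groups, from the edgeR fit over all genes; filled points passed an adjusted p of 0.05 and open grey points did not. B2M lies above 0 in the ISG15 comparison (2.83) and in COL3A1-high against POU5F1-high cells (3.12), whereas TAP2 is above 0 in the first (0.92) and below it in the second (-3.19).

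Other genes of the route were read from lists of known members. Of the immunoproteasome genes, whose products replace or cap the catalytic parts of the proteasome, 4 of 5 were higher in ISG15-high cells, where 13.2% of all genes were (median log2 1.08 against 0.000716), and the same 4 inside groups, where 1.23% were. PSMB8, a catalytic subunit, had 1.19 and 1.07 CPM in ISG15-high cells, 0.325 and 0.311 CPM in POU5F1-high cells, and 0 UMIs in COL3A1-high cells, which allows up to 0.207 and 0.309 CPM. PSMB9, whose start lies beside that of TAP1, was at 0.914 and 1.03 CPM in ISG15-high cells and at most 0.244 CPM in the other groups. The activator subunits PSME1 (log2 1.00) and PSME2 (log2 1.08) rose less, and PSMB10 did not pass (log2 0.06, adjusted p = 0.6). PSME1 was also the gene whose levels over the 10 sums of library and group were most like those of B2M (Pearson r = 0.865 among 9494 genes), before HINT1 (0.856). These sums come from 2 libraries and share their depth.

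Of the nonclassical and related class I genes, SLA-7 (log2 1.09) and SLA-6 (log2 0.20) were higher in ISG15-high cells, SLA-8 (log2 0.03, adjusted p = 0.78) and MIC-2 (log2 -0.12, adjusted p = 0.32) did not pass, and SLA-5 had 0 UMIs. SLA-7 was the only one of the 4 tested that was also higher inside groups (log2 1.53). For the constitutive catalytic subunits, 1 of 3 was higher in ISG15-high cells (PSMB5, log2 0.12; 13.2% of all genes). Inside groups 0 of 3 passed in edgeR, where 1 did at an unadjusted p under 0.05 and 1.23% of all genes were called higher. Of 7 tested genes of peptide loading and trimming, TAPBPL, a tapasin-related protein, was higher (log2 0.54; 13.2% of all genes), and 3 were lower (7.67%), namely PDIA3 (log2 -0.37), the chaperone HSPA5 (log2 -0.33) and the aminopeptidase LNPEP (log2 -0.39). None of the 7 passed inside groups in edgeR, where 2 did at an unadjusted p under 0.05 and DESeq2 called 1.

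Among interferon signalling genes, 3 of 11 were higher in ISG15-high cells, where 13.2% of all genes were, and 2 were lower, where 7.67% were. The higher ones included IRF9 (log2 3.89), a DNA-binding factor, and STAT2 (log2 0.42). The lower ones were IFNGR1 (log2 -0.69), a chain of the interferon gamma receptor, and the inhibitor SOCS1 (log2 -0.39). Inside groups 3 of 11 were higher, where 1.23% of all genes were, and 0 were lower, where 0.481% were. Of 12 factors that bind MHC promoters, 3 were higher (13.2% of all genes), namely IRF2 (log2 0.80), IRF1 (log2 0.56) and NFKB1 (log2 0.26), and IRF1 and IRF2 were also higher inside groups. IRF1 was not highest in ISG15-high cells (7.63 and 8.75 CPM) but in POU5F1-high cells (13.1 and 9.74 CPM). All 11 interferon signalling genes were higher in GABRP-high than in POU5F1-high cells, where 30.8% of all genes were, and all 11 in COL3A1-high than in POU5F1-high cells, where 28.7% were. IFNGR2 had 4.94 and 4.57 CPM in GABRP-high, 6.07 and 4.32 CPM in COL3A1-high and 0.650 and 0.311 CPM in POU5F1-high cells. The summed level of the interferon-stimulated marker list was 175 and 179 CPM in POU5F1-high cells. It was 74.3 and 75.5 CPM in GABRP-high and 52.0 and 46.5 CPM in COL3A1-high cells. Of its 16 tested genes, 6 were higher in GABRP-high than POU5F1-high cells (30.8% of all genes) and 3 lower (26.3%). In COL3A1-high against POU5F1-high cells 3 were higher (28.7%) and 4 lower (28.0%).

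Most class II genes had few UMIs. Of the 10 listed, 5 had enough UMIs to be tested and none was called in ISG15-high cells (edgeR; 2 at an unadjusted p under 0.05, and DESeq2 called 1). Over all genes 13.2% were called higher and 7.67% lower, so a count of 0 among 5 says little. SLA-DOB, a chain of a class II-like protein that modulates peptide loading and a gene singled out after its values were seen, was at 24.2 and 27.1 CPM in POU5F1-high, 12.7 and 13.9 CPM in ISG15-high, 7.97 and 9.15 CPM in GABRP-high and 2.76 and 4.32 CPM in COL3A1-high cells, and at 13.8, 14.7 and 16.5 FPKM in the pESC libraries described below. SLA-DRA had 0 UMIs in all cells, and CD74, the invariant chain, was at 2.98 and 2.37 CPM in ISG15-high and 2.08 and 2.77 CPM in GABRP-high cells. Immune cell markers were looked for because such cells carry much B2M: their summed level over 10 genes was 8.55 and 9.91 CPM in ISG15-high, 15.0 and 13.1 CPM in GABRP-high, and 3.09 to 5.41 CPM in the other groups. NKG7 had 0 UMIs, and PTPRC, which marks blood cells, had 1 UMI in the ISG15-high cells of each library. The marker called higher in ISG15-high cells, AIF1 (5.41 and 7.37 CPM), was higher still in GABRP-high cells (12.3 and 10.5 CPM). The summed level of 5 endothelial markers (PECAM1, CDH5, KDR, TEK and CLDN5) was 119 and 108 CPM in COL3A1-high cells. It was 10.9 and 9.87 CPM in ISG15-high cells and 4.00 to 11.2 CPM in the other groups. Of the 3 tested, 2 were higher in COL3A1-high than POU5F1-high cells, where 28.7% of all genes were. Their part in the B2M differences was not tested.

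In the bulk pESC libraries B2M, TAPBP and TAP2 were the highest members and CIITA the lowest. FPKM values, which are per length and can be set side by side between genes, are given in the order of the columns IVFP25, PA_4P7 and PAP25, whose names do not say which labelled sample each is. Neither the embryo source nor the passage of a column could be settled, so the SDs may span libraries that differ in either. B2M was at 17.5, 22.8 and 8.44 FPKM (16.2 ± 7.24 SD, n = 3), and the larger part in each column, 14.5 FPKM in IVFP25 and 5.81 FPKM in PAP25, lay on the transcript of the partial copy, whose end is also in the first gene's transcripts. TAPBP was at 11.5, 13.9 and 14.6 FPKM (13.3 ± 1.62 SD, n = 3). TAP2 was at 18.4, 5.56 and 6.27 FPKM (10.1 ± 7.20 SD, n = 3), highest in IVFP25, and TAP1 at 4.52, 2.06 and 4.31 FPKM (3.63 ± 1.36 SD, n = 3). B2M, TAPBP and TAP2 overlapped between libraries, and TAP1 was below each of them in every library. In such bulk values fewer cells with a gene and less RNA per cell cannot be told apart.

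The heavy chain genes were lower. SLA-1 was at 0.663, 1.47 and 1.42 FPKM (1.19 ± 0.454 SD, n = 3), SLA-3 at 0.369, 1.03 and 1.26 FPKM (0.887 ± 0.462 SD, n = 3) and SLA-2 at 0.676, 0.252 and 0.417 FPKM (0.448 ± 0.214 SD, n = 3). The ranges of these 3 overlapped. NLRC5 was at 0.193, 0.353 and 0.294 FPKM (0.280 ± 0.0809 SD, n = 3) and CIITA, the lowest, at 0.0592, 0.0296 and 0.0372 FPKM. Among genes above 0, the mean percentile ran from 76.3 for B2M, 74.6 for TAPBP, 66.5 for TAP2 and 51.7 for TAP1 through 38.4 for SLA-1, 35.2 for SLA-3 and 29.1 for SLA-2 to 25.3 for NLRC5 and 8.91 for CIITA. The classical heavy chains were therefore below the nonclassical SLA-6 (32.6, 15.7 and 16.7 FPKM) and SLA-8 (16.9, 17.9 and 20.6 FPKM) in every library.

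That order depends on how the class I locus is annotated. LOC100513601, which overlaps SLA-1 and SLA-2 and has SLA-1 among its synonyms in RefSeq, was at 22.0, 7.38 and 11.6 FPKM, above SLA-1 in every library. The blastoid cells held 33 and 43 UMIs of LOC100513601 in all. This gene was picked out after its values were seen. ISG15 itself was at 5.11, 3.92 and 3.57 FPKM in the pESC libraries, and POU5F1 was at 639, 506 and 432 FPKM. The FPKM table and the UMI sums were made separately and are not compared.

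**Figure D5:**
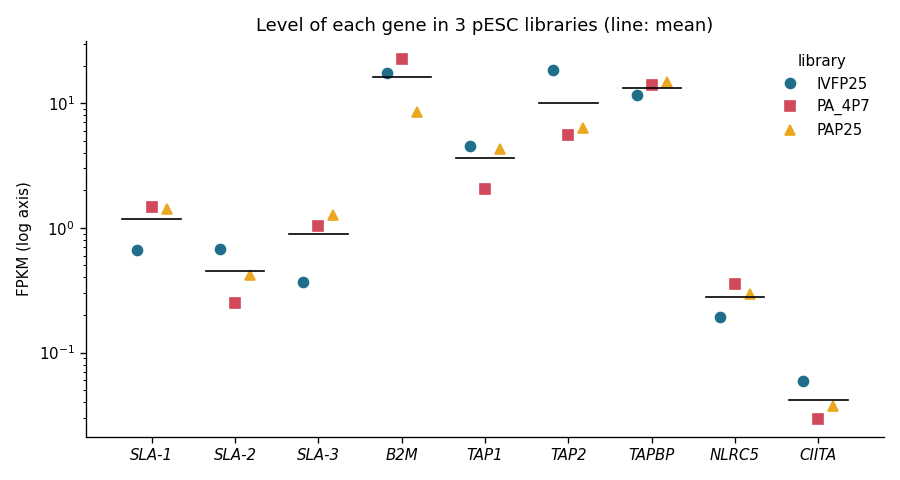
FPKM of the members in the 3 bulk pESC libraries (log axis), 1 point per library with the mean. B2M, TAPBP and TAP2 lie highest (means of 16.2, 13.3 and 10.1 FPKM), the heavy chains near or below 1 FPKM and CIITA lowest.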

How the data were processed

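The blastoid files hold UMI counts per gene and barcode, which the authors made with Cell Ranger 7.1.0 on susScr11 and deposited unfiltered (3364747 and 3442770 barcodes, 289452283 and 302211552 UMIs; 87.8% and 87.7% of UMIs lay in the cells used). The deposited bulk table holds FPKM values per RefSeq transcript, made with Trim Galore 0.6.4, HISAT2 2.2.1 and StringTie 2.2.1; its depth is unknown, and its 3 columns could be tied to the pESC group only. FPKM was summed per gene symbol and not tested. No doublet caller was run; cells with at least 5 UMIs of more than 1 marker were set aside, except ISG15-high cells.

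UMI counts were summed per library and cell group, since cells are not replicates, and tested with edgeR 4.0.16 (glmQLFit and glmQLFTest, TMM scaling, filterByExpr) in R 4.3.3, with Benjamini-Hochberg adjustment over all genes at 0.05. The fit was tested on simulated counts for the ISG15 comparison, where it recovered 46 of 66 genes changed 1.5-fold, 52 of 67 changed 2-fold and 64 of 66 changed 4-fold, with 9 false calls among 18195 genes. The simulated sums were independent, had a single spread for all genes, and had equal levels in all groups apart from the changed genes. The real sums differ in these points, so the rates may not hold for them, least of all for members with few UMIs. Sums of the same library come from the same sample, and their deviations from the group means correlated at 0.0619 to 0.353 over 18571 genes, so library as a block was an alternative. Other alternatives were DESeq2 1.42.0, RLE scaling, no low-count filter, other marker and ISG15 minimums, a mitochondrial filter, removal of the 5% of cells with most UMIs, all ISG15-low cells as a single group, and each library left out. Removal of cells with 10 or more UMIs of SLA-1, SLA-2, SLA-3, NLRC5 or CIITA and an ISG15 minimum per 10000 UMIs were chosen after seeing the data. Shares of cells carry counting error only, as PCR and capture are not covered.

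The text names all 9 members, the 4 genes that set the groups and, from each list, the up to 3 genes with the largest called change per direction or all genes of short lists; the members and lists were chosen with earlier results of these data known. Promoters, motifs and positions were read from RefSeq's Sscrofa11.1 genome and annotation with Python 3.11.15. Results of 1 gene of the lists are not reported here.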

Additional observations from a re-analysis of the deposited data

Results flagged for a closer look

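UMIs of every member also lay in data that no comparison used, the barcodes with at least 1000 UMIs but fewer than the minimum set for cells (3108 in library 1 and 3661 in library 2). Over both libraries these barcodes held 906 UMIs of B2M, 378 of TAP2, 286 of TAP1 and 78 of TAPBP. They held 26 UMIs each of SLA-1 and NLRC5, 24 of SLA-3, 13 of CIITA and 12 of SLA-2. B2M stood there at 37.4 and 35.5 CPM, between the GABRP-high and COL3A1-high cells, and TAP1 at 11.4 and 11.6 CPM.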

How the results depend on the processing

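Over 14 other settings with a test, 514 of 557 differences of single members kept their direction and side of the threshold, 13 lost and 16 gained a call, and 14 changed sign. With 1 library left out, which leaves no test, 100 of 108 kept their direction. No called value changed sign. With all ISG15-low cells as a single group, 194 genes were higher and 106 lower in ISG15-high cells instead of 2444 and 1425. With library as a block 2255 were lower, and inside groups 716 were higher and 509 lower instead of 221 and 86; DESeq2 gave 401 and 203, and removal of the deepest cells gave 138 lower. For the ISG15 difference in GABRP-high minus that in remaining cells, 5 genes were higher and 19 lower. The block gave 119 and 330, DESeq2 49 and 146, and no filter 32 lower. Marker minimums of 3, of 10 and of 2 per 10000 UMIs gave 8 and 7, 15 and 89, and 14 and 55. Removal of the deepest cells gave 10 and 29. The causes were not tested. The block changed no member's call other than those given above.

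Sign changes were as follows, on the log2 scale. CIITA in ISG15-high cells was -0.018 with the mitochondrial filter, -0.020 without the deepest cells, -0.18 against a single group, -0.29 with 3 ISG15 UMIs per 10000, and 0.40 and -0.26 without replicates 1 and 2; inside groups it was 0.11 and -1.06. SLA-2 inside groups was -0.38 with a marker minimum of 3. Between COL3A1-high and GABRP-high cells, SLA-1 was 0.0098 with that minimum, and without replicates 1 and 2 SLA-1 was -1.15 and 0.34, SLA-2 -0.018 and 1.56 and CIITA 0.70 and -1.08. The last changes concern the ISG15 difference in GABRP-high minus that in remaining cells. There SLA-1 was -0.23, SLA-3 0.086 and NLRC5 -0.67 with a minimum of 10. SLA-3 was 0.049 and NLRC5 -0.46 with 2 per 10000, and TAP1 was -0.0070 with a minimum of 3. Without replicates 1 and 2 SLA-3 was 0.15 and -0.50, NLRC5 -0.22 and 1.20 and CIITA 0.21 and -1.08. SLA-2 was 0.010 and NLRC5 -0.30 without the 2 cells rich in them. Each of these genes has few UMIs apart from TAP1, which limits their precision.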

Other observations

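SLA-11, a class I pseudogene on the minus strand of the same locus that was looked at after its values were seen, was at 6.76 and 6.34 CPM in ISG15-high cells (log2 0.68, adjusted p = 0.00068 in the edgeR fit).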
